A study of Mus musculus with 24 samples.

Results

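Serpins are a family of protease inhibitors with 1 shared fold, and 45 of the 17721 genes in the daily rhythm table of mouse epidermis belong to it. The members are all genes of that table whose symbol begins with Serpin in the GENCODE mouse M21 naming of their Ensembl identifiers. That annotation lists 68 such genes, pseudogenes included, and the other 23 were not analysed here. The naming rule uses no measured value, but the family was singled out with results of these data known, so the values below are descriptions without a test.

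The measured animals, called EpiKO here, were 24 male C57BL/6 mice of 8 weeks with a keratin 14 Cre knockout of Bmal1 (Arntl in the gene annotation), which switches on clock genes. Every 4 h, 4 mice gave back skin, at 6 times from lights on (zeitgeber time 0, ZT0) to ZT20, with lights on for 12 h and off for 12 h, and RNA came from cells of the separated epidermis. The keratin 14 promoter drives Cre in keratinocytes, so the pigment and immune cells of the epidermis are not its target. The comparison group is wild-type (WT) epidermis, whose libraries are not samples of this series, and the table holds fits and no value per library. Spread between animals and sequencing depth are therefore unknown, and genotype cannot be told apart from any difference in how both sets of libraries were made.

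A serpin presents a flexible reactive loop as bait. A target protease that cuts the loop is trapped in a covalent complex and distorted, so an inhibitor molecule is used up with its target. Most serpins act on serine proteases, some on cysteine proteases such as cathepsins, and a few are not inhibitors at all. In epidermis, intracellular clade B serpins guard keratinocytes against their own and foreign proteases, and loss of SERPINB7 or SERPINB8 causes human disorders of skin peeling or thickening. Clade A serpins are mostly secreted, and several genes stand in mice where humans have 1 antichymotrypsin gene, SERPINA3.

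Gene clusters on 3 chromosomes hold 35 of the 45 members. Clade A has 14 members on chromosome 12 (103614786 to 104414329, mm10), of which 9 are Serpina3 genes between 104112724 and 104414329. Clade B has 12 members on chromosome 1 (106861173 to 107610484) and 9 on chromosome 13 (32842092 to 34002794). The remaining 10 members belong to clades C to I and lie on 8 chromosomes.

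The Serpina3 and Serpinb clusters share sequence, which bears on every value below, because a short read from a shared stretch cannot be given to 1 gene. Between the 36 pairs of Serpina3 members the coding sequences, taken from GENCODE M21 transcripts, were 76.2% to 92.5% identical over the aligned bases. The 6 pairs of Serpinb3 genes were 86.8% to 93.4% identical, the 3 pairs of Serpinb1 genes 87.8% to 90.7%, and the 10 pairs of Serpinb6 genes 77.8% to 87.9%. Reads had 51 bases. A run of at least 51 identical bases was found in 15 of 36 Serpina3 pairs, 6 of 6 Serpinb3 pairs, 3 of 3 Serpinb1 pairs and 5 of 10 Serpinb6 pairs. The longest coding run common to each of 4 pairs is shown, because these pairs are compared with each other below. All letters are the shared part, so none is in capitals.
Serpina3c and Serpina3n, 69 bases: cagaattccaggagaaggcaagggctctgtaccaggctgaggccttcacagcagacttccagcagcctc
Serpina3b and Serpina3j, 77 bases: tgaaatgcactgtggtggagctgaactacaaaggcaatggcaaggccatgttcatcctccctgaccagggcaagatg
Serpina3f and Serpina3i, 132 bases: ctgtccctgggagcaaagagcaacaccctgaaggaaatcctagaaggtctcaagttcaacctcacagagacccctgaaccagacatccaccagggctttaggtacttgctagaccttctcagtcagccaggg
Serpinb3b and Serpinb3c, 107 bases: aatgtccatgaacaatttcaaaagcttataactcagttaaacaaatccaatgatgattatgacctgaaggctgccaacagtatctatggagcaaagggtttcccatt

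Over whole transcripts the overlap was smaller. The share of a gene's 51-base windows also found in another gene was above 5% for 16 of 45 members and reached 18.5% within the Serpina3 cluster (Serpina3m) and 14.5% within Serpinb3 (Serpinb3a). Serpinc1 (33.5%) shares windows with its neighbour Zbtb37, and Serpinb6a (24.97%) with Nqo2 (12.4%), 1110046J04Rik (8.47%) and Ripk1 (3.37%), all of which overlap them on the other strand. Serpine3 shares 15.5% with Ints6, also on the other strand. Serpinb2 and Serpinb10 overlap on 1 strand and share 242 windows, 10.3% of those of Serpinb2 and 6.94% of those of Serpinb10. Serpina3k and Serpina3m also overlap on 1 strand, and so do Serpinb3b and Serpinb3c. Values of the 16 genes above 5% are less certain than those of the other 29.

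**Figure D1:**
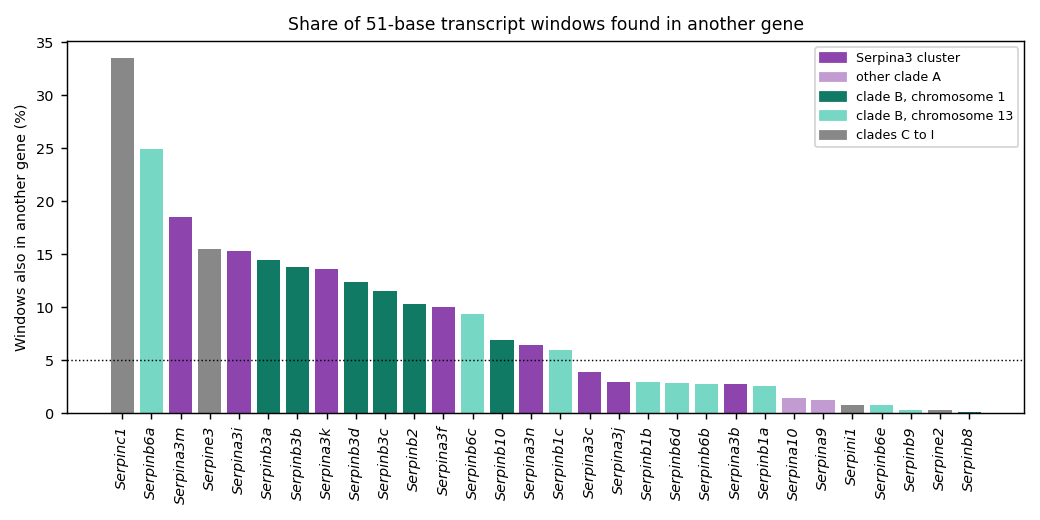
Share of the 51-base windows of each gene's transcripts that also occur in transcripts of another gene (%, vertical axis), for the members with any shared window, coloured by gene cluster. The dotted line marks 5%; 16 members lie above it, led by Serpinc1 (33.5%) and Serpinb6a (24.97%).

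Levels here are the mean of the authors' fitted curve (log2), less the log2 of the exon length in kilobases, so that genes can be ranked. Serpinb5 and Serpinb2 stood first. Serpinb5 encodes maspin, an epithelial clade B protein without protease inhibition, and had a level per kilobase of 12.47 in EpiKO and 11.97 in WT, computed from the authors' deposited table. Serpinb2, the plasminogen activator inhibitor 2 of the cornifying layers, had 12.66 and 11.56 on the same scale. The next 4 were Serpinb7 (9.81 in EpiKO and 9.35 in WT), the collagen chaperone gene Serpinh1 (9.22 and 8.51), Serpinb3b (8.83 in both) and Serpinb8 (8.90 and 8.65). At the other end, Serpina10, Serpina16, Serpina3a and Serpina3m, the 4 lowest per kilobase over both genotypes, had fitted means between -2.07 and -1.17 (log2), the same for EpiKO and WT, in the authors' deposited table, where the lowest EpiKO mean of any gene is -2.45. Of the members, 15 of 45 fell below the 0.25 quantile of the level over all genes (2.92, log2).

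In the authors' deposited table, Arntl itself had a 4.65-fold rhythm in WT and none in EpiKO, and its means were 9.65 (EpiKO) and 9.495 (WT) on the log2 scale. A value for the whole gene does not show whether the deleted part is missing. The keratinocyte label of the tissue held up on its markers, with Krt5 at 17.7 and Krt14 at 16.5 (log2, EpiKO) in the authors' deposited table. Transcripts of other cell types were present too. All 9 fibroblast markers were in the table, 5 of them called higher in EpiKO and none lower, and their summed level was 11.7 against 10.9 in WT (log2). Of 7 Langerhans and dendritic cell markers 6 were called higher and none lower (summed level 12.2 against 11.6), and of 6 T cell markers 3 and none (11.4 against 10.4). Sebaceous markers were called higher in 6 of 7 cases and lower in 1 (10.23 against 10.16). Endothelial markers were called higher in 5 of 6 cases and lower in none (5.60 against 5.17). The 4 mast cell, 3 neutrophil and 2 liver or plasma markers in the table had no called difference, and the mast cell protease genes Cma1, Cpa3 and Mcpt4 were at or below -1.40 (log2) on both sides of the authors' deposited table. In bulk RNA, a change in the number of cells of a type and a change of RNA per cell cannot be told apart.

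Mean levels of serpins differed between genotypes in both directions. A difference was called where the authors' fit gave a weight of at least 0.5 to the model with 2 means. This was so for 28 of 45 members, 18 of them higher in EpiKO and 10 lower. Over all genes, 32.7% were called higher and 37.4% lower, against 40% and 22.2% of the members. By at least 1 log2 unit, 5 members were higher (background 4.53%) and 8 were lower (background 16.8%). The median difference over all 45 members was 0, as it was over all genes, because a gene with 1 mean has a difference of 0. Of the 10 lower members, 8 were above 5% shared windows, while 4 of the 18 higher ones were, and the part of shared reads in these differences was not tested. Among the 12 members at or above the median level of all genes 10 were higher and 1 lower, while over all genes at that level 44.4% were higher and 36.7% lower.

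The most strongly expressed clade B genes were among the higher ones. Serpinb2 had a mean of 13.89 in EpiKO and 12.79 in WT (log2, a difference of 1.09), and Serpinb5 had 13.92 and 13.43 in the authors' deposited table. Serpinb12 (chromosome 1, 106934449 to 106957080), an inhibitor of trypsin-like proteases, had 10.61 and 9.21, a 2.65-fold difference in the authors' deposited table. Serpinb6a (difference 0.71), Serpinb7 (0.45), Serpinb10 (0.31) and Serpinb8 (0.25) were higher by less than 1 log2 unit in the authors' deposited table. Serpinb12, Serpinb5 and Serpinb7 share no window with another gene, so their reads can be placed. Serpinb13, an inhibitor of cathepsins K and L, Serpinb11 and Serpinb3b were given 1 mean for both genotypes, at 4.75, 5.39 and 9.59 in the authors' deposited table.

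The Serpinb3 genes, relatives of the human squamous cell carcinoma antigens, held the largest differences. Serpinb3d (chromosome 1, 107078167 to 107083506) had a mean of 4.49 in WT and -2.41 in EpiKO (log2, a difference of -6.90) in the authors' deposited table, so the EpiKO mean lies at the bottom of the table. Serpinb3c had 6.34 in WT and 0.53 in EpiKO (-5.81), and Serpinb3a had 5.54 and 3.49 (-2.05) in the authors' deposited table. Serpinb3b, the main gene of the 4, did not differ. Summed over the 4 genes, the level was 9.84 in WT and 9.61 in EpiKO (log2), a difference of -0.23. Serpinb3b made up 83.7% of that sum in WT and 98.4% in EpiKO. Levels in these sums are not per length. They add fitted means turned back from log2, so reads that move between the 4 copies need not leave the sum unchanged. Serpinb3a and Serpinb3d also share 9.68% and 4.97% of their windows with Gm8080, which is not part of the sum. Serpinb3a, Serpinb3b, Serpinb3c and Serpinb3d share 14.5%, 13.8%, 11.6% and 12.4% of their windows with other genes. The annotated span of Serpinb3c overlaps that of Serpinb3b on the same strand, and the part of shared reads in these differences was not tested.

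Differences of this size were mostly negative over the whole table. A difference of -4 or lower was found for 1067 of all 17721 genes (6.02%), and one of 4 or higher for 45 (0.254%). Among the members these numbers were 3 of 45 and 0 of 45. The third was Serpine3 (3.06 in WT, -1.69 in EpiKO) in the authors' deposited table. Its antisense neighbour Ints6 had means of 9.93 in EpiKO and 9.34 in WT in the authors' deposited table. Single markers of other cell types were also among such genes while their partners were not. The pigment enzyme gene Tyr differed by -5.05 and Dct and Tyrp1 by 0, and the hair keratin gene Krt25 differed by -6.14 and Krt27 and Krt71 by 0, in the authors' deposited table. Of all 10 hair follicle and outer root sheath markers, 6 were called lower in EpiKO and 0 higher, with a median difference of -0.71 (log2). Of the 6 melanocyte markers, 2 were called lower and 0 higher. Over all genes, 37.4% were called lower and 32.7% higher.

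Within the Serpina3 cluster 3 genes were higher and 3 lower. Serpina3b (chromosome 12, 104127996 to 104139545) had a mean of 10.50 in EpiKO and 8.33 in WT (log2, a difference of 2.16) in the authors' deposited table. Serpina3k (1.42 and -0.03) and Serpina3j (8.76 and 7.85) were higher too in the authors' deposited table. Serpina3f had 4.93 in EpiKO and 7.67 in WT (-2.74), Serpina3n 2.23 and 4.50 (-2.27), and Serpina3i 8.29 and 9.75 (-1.46) in the authors' deposited table. Serpina3c, Serpina3a and Serpina3m had 1 mean. The leading gene of the cluster was therefore not the same in both genotypes. Serpina3i made up 51.7% of the summed level of all 9 genes in WT, and Serpina3b made up 64.1% in EpiKO. The sum itself was 11.14 in EpiKO and 10.70 in WT (log2). Serpina3f and Serpina3i share 10.05% and 15.4% of their windows with other genes, and Serpina3b and Serpina3j share 2.72% and 2.95%.

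Differences outside the Serpina3 and Serpinb3 genes went both ways too. Serpina5, which encodes the protein C inhibitor, had the largest positive difference, with means of 3.05 in EpiKO and 0.63 in WT (2.42, log2) at a low level in the authors' deposited table. Serpinb1b was at -1.93 in EpiKO and 1.75 in WT, while its relative Serpinb1a was higher in EpiKO (6.84 and 6.16) and Serpinb1c had 1 mean (1.86) in the authors' deposited table. On chromosome 13, Serpinb6c (difference -0.94) was lower, Serpinb6d (0.90), Serpinb6e (0.82) and the granzyme B inhibitor Serpinb9 (0.67) were higher, and Serpinb6b had 1 mean (3.94), in the authors' deposited table. The complement inhibitor gene Serping1 (4.91 and 4.14), Serpinf1, which encodes PEDF (4.19 and 3.54), and Serpinh1 (10.51 and 9.80) were higher in EpiKO in the authors' deposited table. These 3 genes are also expressed by fibroblasts, of whose markers 5 of 9 were higher in EpiKO and 0 of 9 were assigned a rhythm, and the part of those cells in the result was not tested. Serpind1, the heparin cofactor II gene, was at 2.03 and 2.59 in the authors' deposited table. The genes for protease nexin (Serpine2), antithrombin (Serpinc1), antiplasmin (Serpinf2) and neuroserpin (Serpini1) had 1 mean each, at 5.46, 2.64, 2.14 and 0.96 in the authors' deposited table. The clade A genes Serpina9 (4.01) and the adipokine gene Serpina12 (6.91) also had 1 mean in the authors' deposited table.

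**Figure D2:**
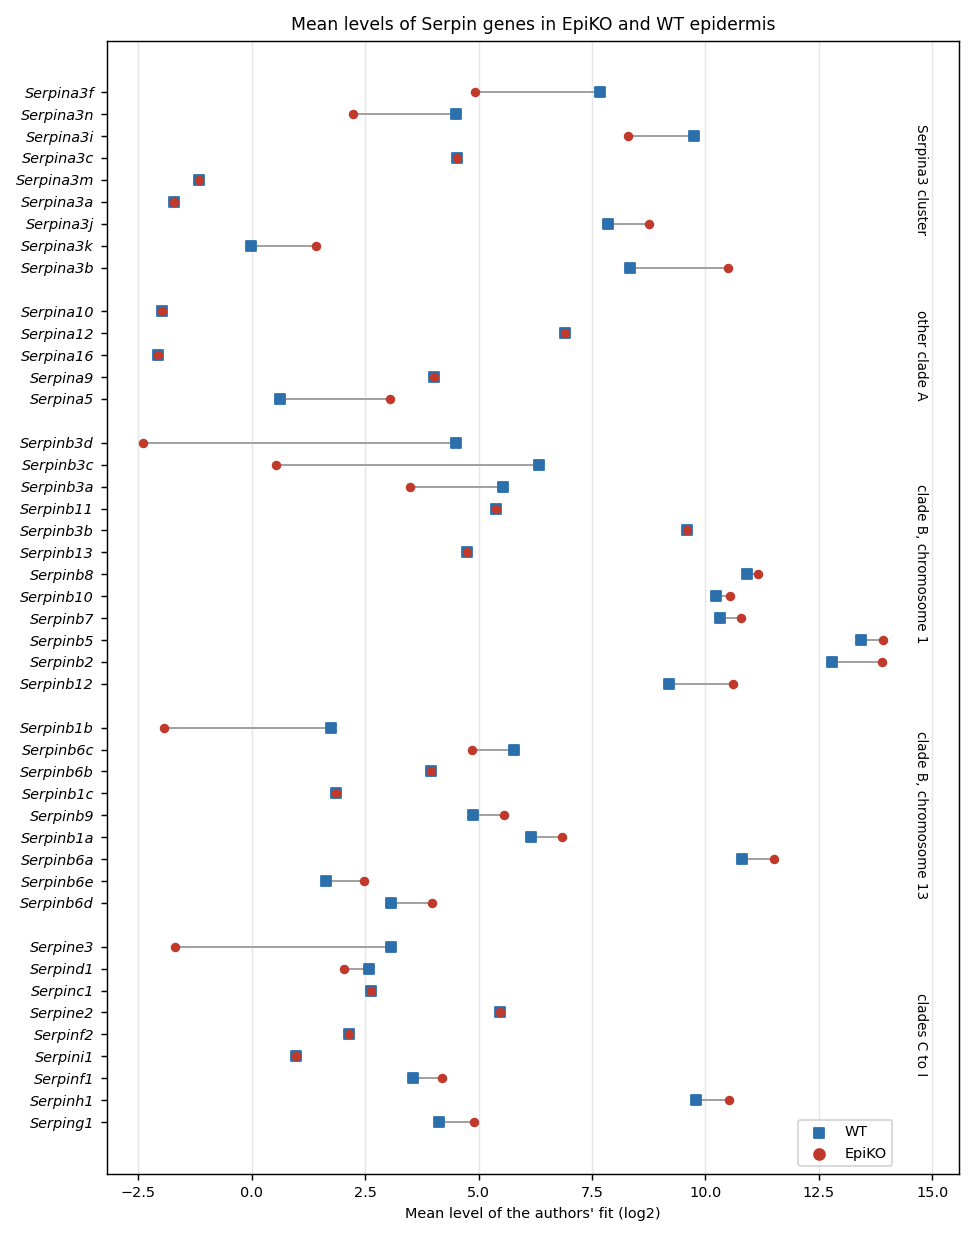
Mean level of the authors' fitted curve (log2, horizontal axis) of the Serpin genes described in the text in WT (blue squares) and EpiKO (red circles), joined by a line and grouped by gene cluster; a circle inside a square marks a gene with 1 mean for both genotypes. The longest lines run to the left in EpiKO and belong to Serpinb3d (4.49 to -2.41), Serpinb3c (6.34 to 0.53) and Serpine3 (3.06 to -1.69).

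Daily rhythms of serpins were assigned to both genotypes or to 1 of them. The authors' fit weighs 5 models per gene, and the leading model was taken as a gene's class where its weight reached 0.5. The weight is a probability under those models, not a p-value. Of 42 assigned members 15 were rhythmic in at least 1 genotype, 35.7% against 36.1% of all assigned genes. By class, 5 members were rhythmic in EpiKO only (background 4.86%), 2 in WT only (9.48%), 6 had the same rhythm in both (18.8%), 2 had different rhythms (2.99%) and 27 had none. Of the 5 EpiKO-only genes, 3 belong to the Serpina3 cluster and share sequence, so they are not independent of each other. The median fold amplitude, peak over trough of the fitted curve, was 2.31 over the 13 members with an EpiKO rhythm and 1.98 over the 10 with a WT rhythm. Over all genes it was 1.28 and 1.29. These medians do not allow for level. Of the 45 members, 33 lie below the median level of all genes, and the part of level in the amplitudes was not tested.

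**Figure D3:**
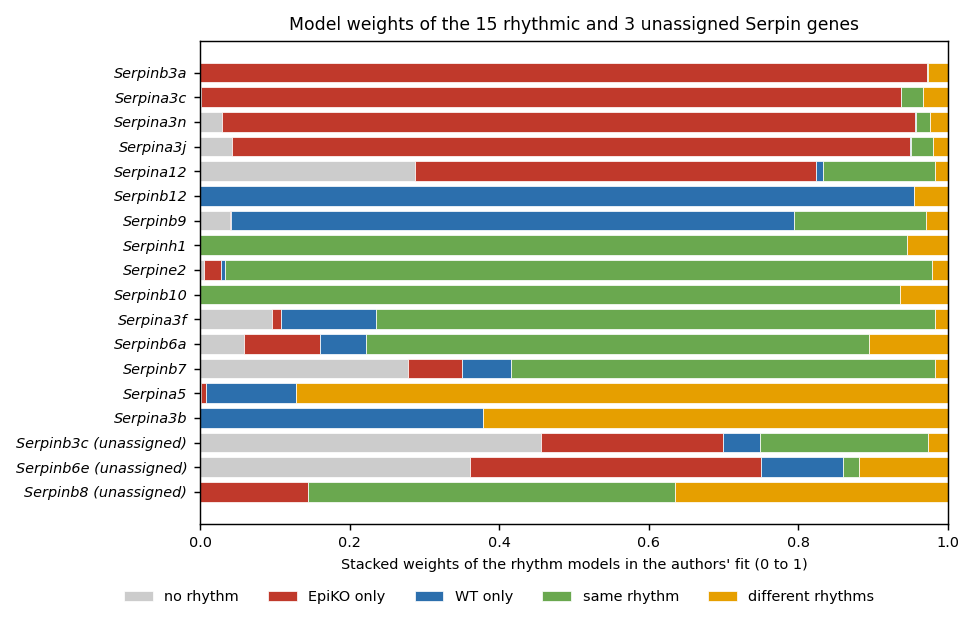
Stacked weights of the 5 rhythm models (adding to 1, horizontal axis), 1 colour per model, in the authors' fit for the 15 rhythmic members and the 3 members left unassigned. The widest segment is just over the limit of 0.5 for Serpina12 (0.536) and Serpinb7 (0.567) and under it for Serpinb8 (0.490), Serpinb3c (0.455) and Serpinb6e (0.389).

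In the Serpina3 cluster, 5 of 9 members were rhythmic, and 4 of them had an EpiKO curve that WT did not share. Serpina3n, whose protein inhibits granzyme B, cycled 3.67-fold in EpiKO with a peak at ZT12.7, and no rhythm was assigned in WT (weight 0.927 in the authors' deposited table). Its fitted EpiKO level went from 1.31 (log2) at ZT0 to 3.16 at ZT12, and all of the curve lay below the flat WT level of 4.50. The EpiKO mean of 2.23 is under 2.92, the 0.25 quantile of level over all genes. Serpina3n shares 6.41% of its windows with other genes, above the limit of 5%. Among these are 23 windows shared with Serpina3c, 16 with Serpina3j and 3 with Serpina3b, and the part of shared reads in this rhythm was not tested. Serpina3j cycled 3.47-fold with a peak at ZT13.3 (weight 0.906 in the authors' deposited table). Its fitted EpiKO level was 7.91 at ZT0, near the flat WT level of 7.85, and 9.60 at ZT12. Serpina3c cycled 2.49-fold with a peak at ZT12.5 around a mean of 4.53 that it shared with WT (weight 0.936 in the authors' deposited table). All 3 were therefore lowest around lights on and highest around lights off.

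Serpina3b moved in both genotypes at opposite times of day. The WT rhythm was 3.72-fold and peaked at ZT0.341, and the EpiKO rhythm was 1.81-fold and peaked at ZT13.1, in the authors' deposited table. The fitted WT level fell from 9.27 (log2) at ZT0 to 7.39 at ZT12, and the EpiKO level went from 10.09 to 10.91 over the same times. The EpiKO curve thus stayed above the WT curve at all 6 sampled times. A rhythm in WT was supported by a weight of 1.00, and a rhythm in EpiKO by 0.622, with 0.378 on the model that has a rhythm in WT only, in the authors' deposited table. Serpina5, the neighbour of the cluster, had the same opposition, with 8.10-fold at ZT23.1 in WT and 2.80-fold at ZT10.5 in EpiKO (weight 0.871 in the authors' deposited table). It lies below the 0.25 quantile of level, as 15 of the 45 members do. Peaks of both genes lay 11.3 h and 11.4 h apart.

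The 4 EpiKO curves of Serpina3b, Serpina3c, Serpina3j and Serpina3n peaked within ZT12.5 to ZT13.3. Of all 4188 assigned EpiKO rhythms, 10.7% peaked between ZT12 and ZT16, and of all 764 EpiKO-only genes 18.2% did. Serpina3f differed from them, with a weak rhythm of 1.40-fold at ZT10.3 shared by both genotypes (weight 0.747 in the authors' deposited table). Serpina3i was assigned no rhythm (0.566, with 0.303 on a shared rhythm) in the authors' deposited table. Serpina3a, Serpina3k and Serpina3m, all near the bottom of the table, had no rhythm either.

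The EpiKO curves of Serpina3b, Serpina3c, Serpina3j and Serpina3n peaked close together, while in WT only Serpina3b of these was rhythmic. What part shared reads have in this was not tested. The 250 bases before the RefSeq start sites (GRCm38.p6) of Serpina3 genes were compared. Those of Serpina3c and Serpina3n were 92.7% identical over the aligned bases. Serpina3b was 75.3% identical to Serpina3n and 73.5% to Serpina3c, and Serpina3i, which was assigned no rhythm, was closer to Serpina3c (78.7%) and Serpina3n (77.9%). Serpina3j was 65.2% to 67.5% identical to Serpina3b, Serpina3c and Serpina3n, and Serpina3f and Serpina3i were 82.2% identical. The sequences of 3 of them follow, with each AGAACA, a half-site of the glucocorticoid receptor element (read on either strand), and each TATAAA in capitals.
Serpina3b, chr12:104127746-104127995, plus strand: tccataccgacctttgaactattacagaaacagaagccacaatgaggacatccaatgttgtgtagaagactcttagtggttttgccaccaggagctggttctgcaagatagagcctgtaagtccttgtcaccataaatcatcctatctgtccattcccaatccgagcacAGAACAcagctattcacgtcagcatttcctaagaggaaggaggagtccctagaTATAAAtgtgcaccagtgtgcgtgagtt
Serpina3c, chr12:104153873-104154122, minus strand: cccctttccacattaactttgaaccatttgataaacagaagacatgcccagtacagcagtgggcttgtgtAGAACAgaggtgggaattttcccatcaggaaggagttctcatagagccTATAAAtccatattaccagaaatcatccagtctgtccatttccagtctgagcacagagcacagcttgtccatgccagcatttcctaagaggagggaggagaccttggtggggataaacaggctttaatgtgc
Serpina3n, chr12:104406458-104406707, plus strand: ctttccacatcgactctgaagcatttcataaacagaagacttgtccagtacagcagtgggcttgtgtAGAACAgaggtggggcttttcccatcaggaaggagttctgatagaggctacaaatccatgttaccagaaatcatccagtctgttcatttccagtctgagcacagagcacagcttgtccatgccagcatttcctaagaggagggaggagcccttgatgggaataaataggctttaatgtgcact

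Motif letters were counted in the full windows, from 250 before to 50 after the start, which RefSeq gives for 37 of the 45 members. AGAACA occurred in 17 of 37, among them 7 of the 7 Serpina3 genes with a window, and in 19.0% of all 27025 promoters. These 7 windows resemble each other, so they are not independent counts. They include those of Serpina3a and Serpina3i, which were assigned no rhythm, and of Serpina3f, which had a shared one. The E-box CACGTG, the letters bound by the BMAL1 and CLOCK pair, occurred in 0 of 37 and in 7.24% of all promoters. The D-box TTATGNAA occurred in 3 of 37 (Serpina3n, Serpinb3a and Serpinb3b) and in 3.52% of all, and AGGTCA, the half-site of the REV-ERB and ROR receptors, in 9 of 37 and 16.04%. TGANTCA, the AP-1 site, occurred in 7 of 37 and 7.93%, and the 7 are all clade B genes of chromosome 1 (Serpinb2, Serpinb5, Serpinb7, Serpinb8, Serpinb10, Serpinb11 and Serpinb12). GAANNTTC of the heat shock element occurred in 4 of 37 and 7.95%, and TATAAA, read on the gene's strand, in 8 of 37 and 8.88%. Except for TATAAA, both strands were read. The RefSeq start of Serpina3j lies at a coding exon, so its window may not be its promoter. These are matches of letters and do not show binding.

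Of the clade B genes, 3 had a rhythm in a single genotype, 2 of them in WT. Serpinb12 had a 2.84-fold WT rhythm that peaked at ZT0.563 and no EpiKO rhythm (weight 0.955 in the authors' deposited table). Its fitted WT level went from 9.95 (log2) at ZT0 to 8.46 at ZT12, below the flat EpiKO level of 10.61 at all sampled times. Serpinb9 had a 2.18-fold WT rhythm that peaked at ZT4.46 (weight 0.753 in the authors' deposited table). Serpinb3a was rhythmic in EpiKO only, 3.66-fold with a peak at ZT5.57 (weight 0.972 in the authors' deposited table), around a mean that was lower than in WT. Of the 5 EpiKO-only genes, Serpinb3a and Serpina12 peaked in the light phase. Serpina12 encodes vaspin, an inhibitor of the desquamation protease KLK7, and cycled 2.31-fold with a peak at ZT0.558 at the limit of assignment (weight 0.536 in the authors' deposited table).

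The 6 shared rhythms ranged from 1.18-fold to 3.05-fold, and 4 of them peaked before ZT12. Serpinb10 (chromosome 1, 107529003 to 107549271), annotated as a polymorphic pseudogene, cycled 1.77-fold with a peak at ZT11.8 (weight 0.936 in the authors' deposited table). Serpinb2, which overlaps it and had a level per kilobase of 12.66 against 8.73 (log2) in EpiKO, was assigned no rhythm, with a weight of 0.541, 0.323 on an EpiKO rhythm and 0.113 on a shared one, in the authors' deposited table. Serpinb7 (1.24-fold, ZT9.31) and Serpinb6a (1.18-fold, ZT9.96) were assigned a shared rhythm with weights of 0.567 and 0.673 in the authors' deposited table. Serpinb8 had a fitted shared rhythm of 1.22-fold at ZT8.69 but stayed unassigned (0.490, with 0.365 on different rhythms and 0.144 on EpiKO only) in the authors' deposited table. Its weight for any rhythm was 0.999 in EpiKO and 0.856 in WT, so what was least settled is whether both genotypes have the same rhythm.

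Serpine2 and Serpinh1 peaked in the dark phase. Serpine2 (chromosome 1, 79794197 to 79861180), whose protein inhibits thrombin and urokinase, cycled 3.05-fold with a peak at ZT18.6 and 1 mean for both genotypes (weight 0.946 in the authors' deposited table). Serpinh1 (chromosome 7, 99345376 to 99353239) encodes HSP47, a chaperone of collagen in the endoplasmic reticulum that inhibits no protease. It cycled 1.595-fold with a peak at ZT19.3 and a higher mean in EpiKO (weight 0.946 in the authors' deposited table). Its fitted level went from 10.18 (log2) at ZT8 to 10.84 at ZT20 in EpiKO and from 9.47 to 10.13 in WT, so the EpiKO curve lay above the highest WT value at all sampled times.

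**Figure D4:**
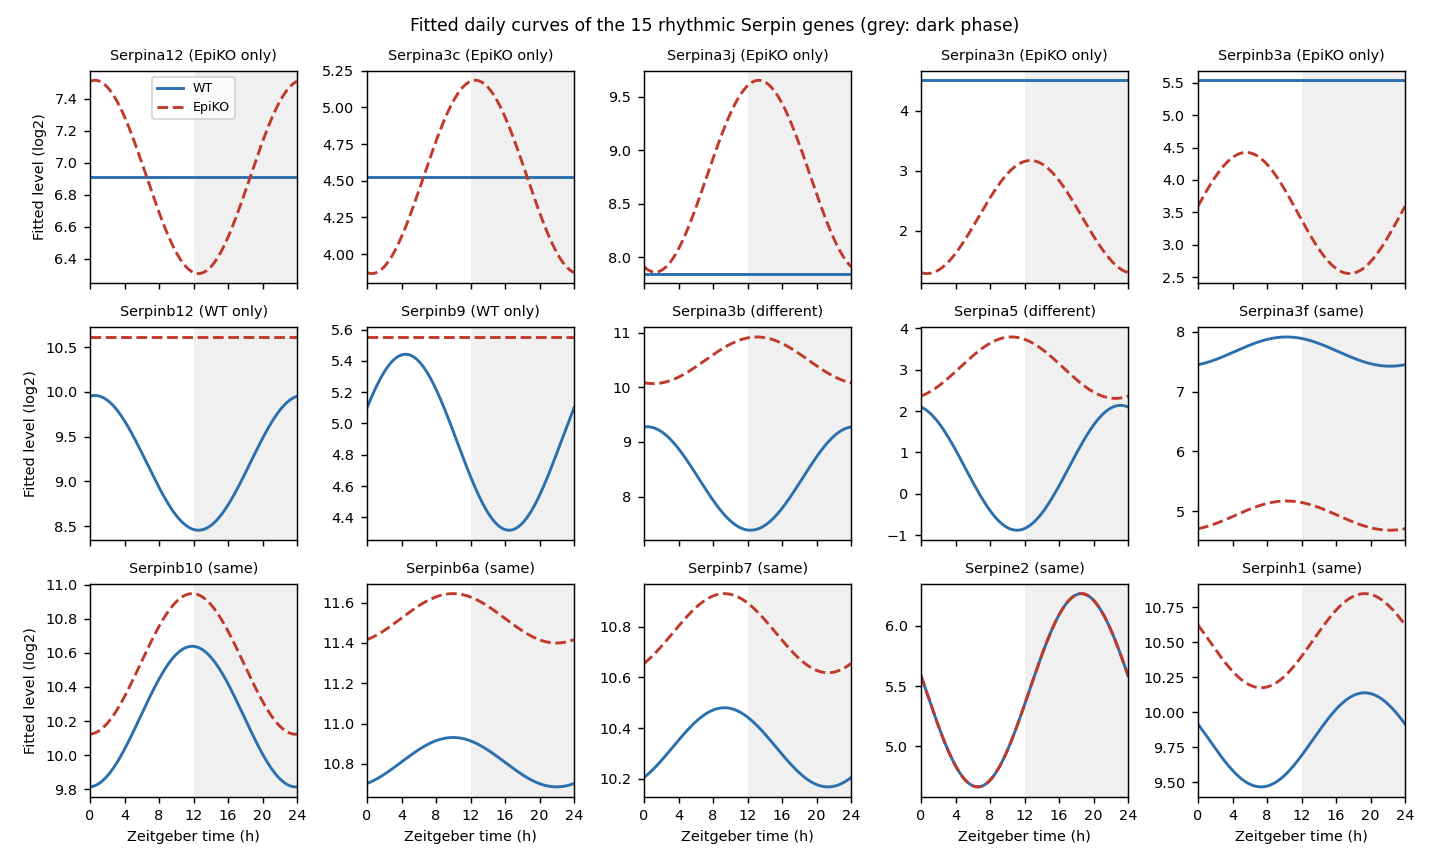
Curves computed from the authors' fitted coefficients for the 15 rhythmic members: level (log2, vertical axis, scaled per gene) against zeitgeber time (h), with WT as a solid blue line, EpiKO as a dashed red line and the dark phase in grey. Serpina3c, Serpina3j and Serpina3n rise to ZT12.5 to ZT13.3 in EpiKO over a flat WT line, and Serpina3b and Serpina5 run opposite in both genotypes.

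**Figure D5:**
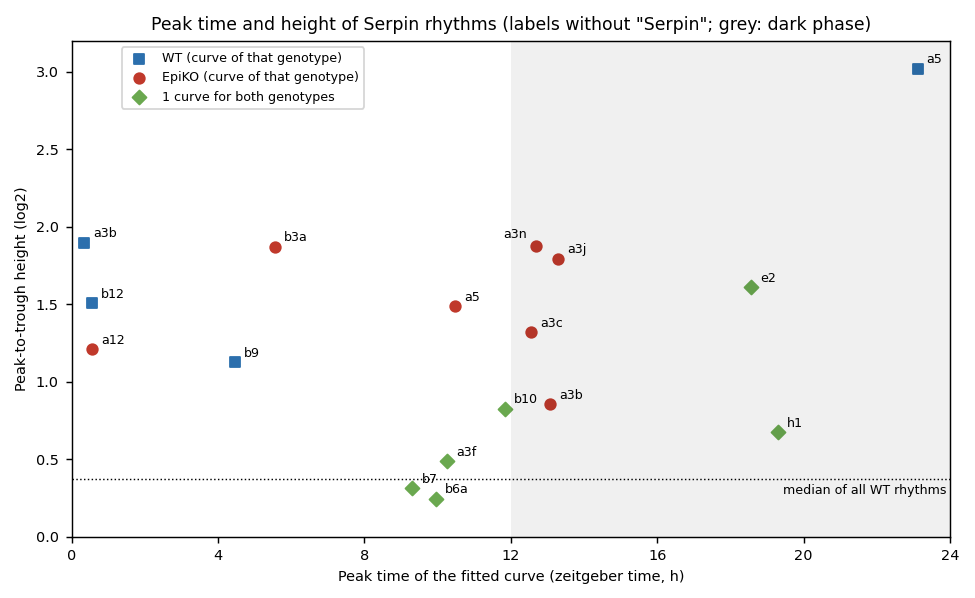
Peak-to-trough height (log2, vertical axis) against peak time (h) of each assigned rhythm: WT curves as blue squares, EpiKO curves as red circles and curves shared by both genotypes as green diamonds, with the dark phase in grey and the median height of all WT rhythms (0.37) dotted. EpiKO peaks of a3b, a3c, a3j and a3n gather at ZT12.5 to ZT13.3, while the WT peaks of a3b, a5 and b12 lie between ZT23.1 and ZT0.563.

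Proteases and partners of serpins were counted from 5 lists, to be read against all genes, of which 32.7% were called higher and 37.4% lower and, of those assigned, 36.1% were rhythmic and 18.8% had a shared rhythm. In the plasminogen system (11 genes of 13 in the table), 7 genes were called higher in EpiKO and 2 lower, and 4 of 9 assigned genes were rhythmic, a share near that of all genes. The serpin receptor gene Vldlr cycled 1.68-fold at ZT19.6 and the urokinase gene Plau 1.32-fold at ZT0.439, each with a rhythm shared by EpiKO and WT, in the authors' deposited table. The thrombin gene F2 cycled 2.50-fold at ZT14.0 in EpiKO only and had the largest mean difference (1.03), followed by Plgrkt (1.01) and Vldlr (0.97), in the authors' deposited table. Among 16 cathepsin and granzyme genes, some of which encode targets of clade B serpins, 10 were higher and 2 lower, and 8 of 16 were rhythmic. Ctss (1.97-fold at ZT14.5, EpiKO only), Ctsl (1.92-fold at ZT12.2, WT only) and Ctsf (1.81-fold in WT and 1.21-fold in EpiKO) had the largest amplitudes, and Gzmc (1.47), Ctss (1.22) and Ctsw (1.11) the largest mean differences, in the authors' deposited table. Ctss, Ctsw and Gzmc are expressed by immune cells, of whose markers 6 of 7 (Langerhans and dendritic), 3 of 6 (T cell), 0 of 4 (mast cell) and 0 of 3 (neutrophil) were called higher, and the part of those cells was not tested.

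The list of 22 epidermal proteases had 4 genes higher and 9 lower, with 5 of 21 rhythmic. Klk10 (1.35-fold, WT only), Tmprss13 (1.24-fold, WT only) and Casp14 (1.22-fold, shared) had the largest amplitudes, and Klk14 (-9.25), Klk6 (-1.31) and Tmprss11e (-0.96) the largest mean differences, in the authors' deposited table. Other protease inhibitors (25 of 29 genes in the table) had 6 higher and 10 lower, with 5 of 23 rhythmic. Tfpi (3.43-fold, WT only), Csta1 (1.78-fold, WT only) and Wfdc5 (1.64-fold, shared) had the largest amplitudes, and A2ml1 (-6.42), Pi15 (-2.31) and Wfdc12 (-2.24) the largest mean differences, in the authors' deposited table. Of 19 collagen folding partners of Serpinh1, 8 were higher and 6 lower, shares near those of all genes, and 10 of 16 were rhythmic, 6 of them with a shared rhythm. The prolyl hydroxylase subunit gene P4ha2 (1.94-fold at ZT17.0, shared), the lysyl hydroxylase gene Plod2 (2.42-fold at ZT19.9, WT only) and P3h1 (1.65-fold at ZT20.0 in WT and 1.48-fold at ZT11.0 in EpiKO) had the largest amplitudes, and P4hb (0.89), Col1a2 (0.74) and Col4a2 (-0.65) the largest mean differences, in the authors' deposited table.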

How the data were processed

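The 24 EpiKO libraries were made with a stranded kit for polyadenylated RNA and read as single reads of 51 bases, per the labels' protocols. Per the submitters' processing notes, the tools were featureCounts 1.6.0, HISAT2 2.2.1, edgeR, Trimmomatic 0.36 and SAMtools 1.3.1 with mm10 as the genome, named without order or settings. The deposited table compares EpiKO with WT epidermis by dryR, per the series design text. It holds log2 mean levels and scores from 0 to 1, which are weights of 5 rhythm models and 2 mean models, as the authors deposited them, besides coefficients, heights and peak times of the fitted curves. The strand setting of the counting and the scaling of libraries were not given in the sources used here. One side is headed WT, and the other, headed FC, was taken as EpiKO.

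Symbols matched 17720 of 17721 identifiers. The deposited height equals 2 times the root of the summed squared coefficients within 1e-06 for all 5062 EpiKO and 5914 WT rhythms, so folds are 2 to that power. The members and the gene lists were chosen with earlier results of these data known, so no test was made. All members but 1, which is not reported here, are named, with full values for rhythmic members, members with a called difference of at least 1 log2 unit, the 6 highest per kilobase and those beside the weight limit; of each partner list, up to 3 genes by amplitude and 3 by mean difference. Shared windows have 51 bases and a limit of 5%, and were counted on either strand. The calculations were tested on simulated curves. Alternatives were other weight limits, a minimum height or difference, centring, and leaving out low or shared genes. Python 3.11.15, NumPy 2.4.6, pandas 2.3.3, Biopython 1.88 and matplotlib 3.10.9 were used.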

Additional observations from a re-analysis of the deposited data

How the results depend on the processing

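No paired analysis was possible because the table holds no value per library; for the same reason no replicate could be left out. Shares over all genes under the same setting stand in parentheses, but shared windows were counted for Serpin genes only. Leaving out members over 5% therefore removed no gene outside the family from those shares. With a minimum weight of 0.8, 17 members had no rhythm (69.9%), 1 was rhythmic in WT only (7.36%), 3 had the same (16.8%) and 1 had different rhythms (3.196%), of 26 assigned; 9 of the 15 rhythmic members kept their class, and Serpina12, Serpina3b, Serpina3f, Serpinb6a, Serpinb7 and Serpinb9 did not. Without genes under the 0.25 quantile of level, 14 of 28 had no rhythm (52.7%) and 1 had different rhythms (4.05%), and of 30 members 3 were higher by at least 1 log2 unit (3.57%), 6 were lower (37.5%) and 5 were lower by at least 1 (11.05%). Without the members over 5% shared windows, 17 of 27 had no rhythm (63.9%), 3 had an EpiKO rhythm alone (4.85%) and 3 had the same rhythm (18.8%). Of the 29 members left, 3 were higher by at least 1 log2 unit (4.52%), 2 were lower (37.4%) and 1 was lower by at least 1 (16.8%). Most lower calls were thus in genes over the limit, of which Serpine3 shares windows only with Ints6 on the other strand. Fewer members by construction lower these counts. Summed model weights, an alternative chosen after seeing the data, gave 3.90 of 45 members for WT only (13.5%). A minimum height of 0.25 (log2) removed Serpinb6a. The 13 differences of at least 1 log2 unit kept their call under a mean weight of 0.8. A minimum difference of 0.5 could not change these 13 calls. Centring could not either, because the median difference over all genes is 0. Depth is unknown, so what low counts limit cannot be given.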
